A study of Mus musculus with 18 samples.

Results

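Gene expression at 30 min was compared with that at 10 min in mouse macrophages given LPS plus IL-10. The comparison takes the 6 arrays of that treatment at these times, 3 per time, out of 18 in the series, chosen from the sample labels and paired by replicate number. Each replicate number is a complete experiment of its own, and the 3 experiments were done in sequence with mice matched for age and sex. IL-10 -/- mice supplied the marrow for every group, and its cells became macrophages over 7 days with CSF-1 from L-cell medium and were then treated in medium without added CSF-1. LPS, the bacterial glycolipid that Toll-like receptor 4 senses, was at 100 ng/ml, and IL-10 at 10 ng/ml. The remaining arrays are the same treatment at 20 min and LPS alone at 10, 20 and 30 min. Untreated cells, IL-10 without LPS and wild-type cells were not analysed here, so a change is one between 10 and 30 min of treatment and cannot be assigned to LPS or IL-10 by itself. The labels do not say how many mice gave cells to an experiment.

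LPS acts through Toll-like receptor 4 on NF-kB and the MAP kinases, which switch on immediate early genes, chemokines and cytokines within minutes and, soon after, the inhibitors that limit the same signals. IL-10 binds its receptor on macrophages, which activates the kinases JAK1 and TYK2 and the transcription factor STAT3. STAT3 target genes include Socs3, an inhibitor of cytokine receptor signalling, and the study's title refers to a repressor and a co-repressor under the control of this pathway. Mice labelled IL-10 -/- are meant to make no IL-10 of their own, so that the added cytokine can be controlled.

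On the 6 arrays the trimmed mean signal was 500.0 by the scaling of the deposited values, so that a change in total RNA per cell would not be seen. The median signal lay between 77.3 and 89.8. Their lower quartiles were 22, 25.9 and 27.5 at 10 min and 23.2, 22.9 and 23.6 at 30 min, so the dim end of the 10 min arrays of experiments 2 and 3 was brighter. Outside these 6, the 20 min LPS arrays of experiments 2 and 3, which enter the same fit, had the highest median signals of the series. These were 121.2 and 111, with lower quartiles of 38.7 and 34.1. Il10, the targeted gene, gave a signal of 928, 769 and 1073 at 10 min in experiments 1, 2 and 3 and of 2857, 2500.3 and 3209 at 30 min. Where its probes lie relative to the disrupted part of the gene was not known here, so the signal is no check of the genotype. All 16 macrophage markers on the list, Csf1r and Adgre1 among them, were above the array's median on all 6 arrays. Of the markers of other cells, 9 of 11 granulocyte genes, 6 of 11 stromal genes, 2 of 8 dendritic cell genes (Itgax and Batf3), 1 of 11 lymphocyte genes (Cd79b) and 0 of 5 erythroid genes were. The share of all genes above the median in this way, on their brightest probe sets, was not counted. These marker counts therefore do not tell by themselves which cells were present. The summed macrophage marker signal was 233696 to 307910.0 at 10 min and 242889 to 272625 at 30 min, that of granulocyte markers 6919 to 13486 and 7218 to 15221, and that of stromal markers 3549.7 to 4225 and 3089 to 3890.0. No member of the 6 marker lists passed the test. In bulk samples such as these, fewer cells of a type and less RNA per cell cannot be told apart.

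Socs3 rose furthest over these 20 min, and on their brightest probe sets 6 chemokine genes, 5 cytokine genes, 4 immediate early effectors, 2 NF-kB feedback genes and 1 MAP kinase feedback gene of the lists rose too. Of 45037 probe sets, 52 rose, or 0.115 percent, and 8 fell, or 0.0178 percent. The fold changes are on the scale of log2(signal + 16), which understates the change of dim probe sets, and a probe set passed at a limma adjusted p below 0.05 in a fit with the experiment as a block. Of the risers, 48 probe sets carried 1 symbol and belonged to 35 genes, and 4 carried none. Of those that fell, 1 was named, Nrp1, and 7 were not. Every called probe set moved in the same direction in all 3 experiments. The calls rest on these same 6 arrays, so this shared direction and the separation of the times are descriptions that the choice favours. The 3 arrays at 30 min were all above the 3 at 10 min for 42 of the 52 risers, against 2.86 percent of all probe sets, and the 8 that fell were all below, against 5.02 percent.

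Many calls were lost when an experiment was left out. Such a fit also holds fewer arrays, so a lost call does not by itself show that the change rested on that experiment. Without experiment 1, 2 or 3 the called values were 0.74 to 1.22, 0.69 to 1.23 and 0.75 to 1.37 times those of the main fit. Of the 60 called probe sets, 14 passed whichever experiment was left out, and they belonged to 12 genes: Socs3, Sbno2, Etv3, Cxcl2, Cxcl1, Ccl3, Ier3, Dusp1, Zfp36, Pde4b, Il10 and Nrp1. Without experiment 1, 2 or 3 there were 17, 21 and 70 risers and 2, 3 and 3 that fell. With the block left out of the fit, 12 probe sets rose, of Socs3 (3), Sbno2 (3), Cxcl2, Etv3, Ier3, Pde4b, Dusp1 and Mt1, and 1 unnamed one fell, so the Nrp1 call and those of the remaining risers rest on comparing the times within experiments. Without the intensity trend 34 of the 60 calls were lost, those of Ccl3 (adjusted p = 0.0558) and Nrp1 (0.0882) among them, while the other 12 of those 14 probe sets passed.

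**Figure D1:**
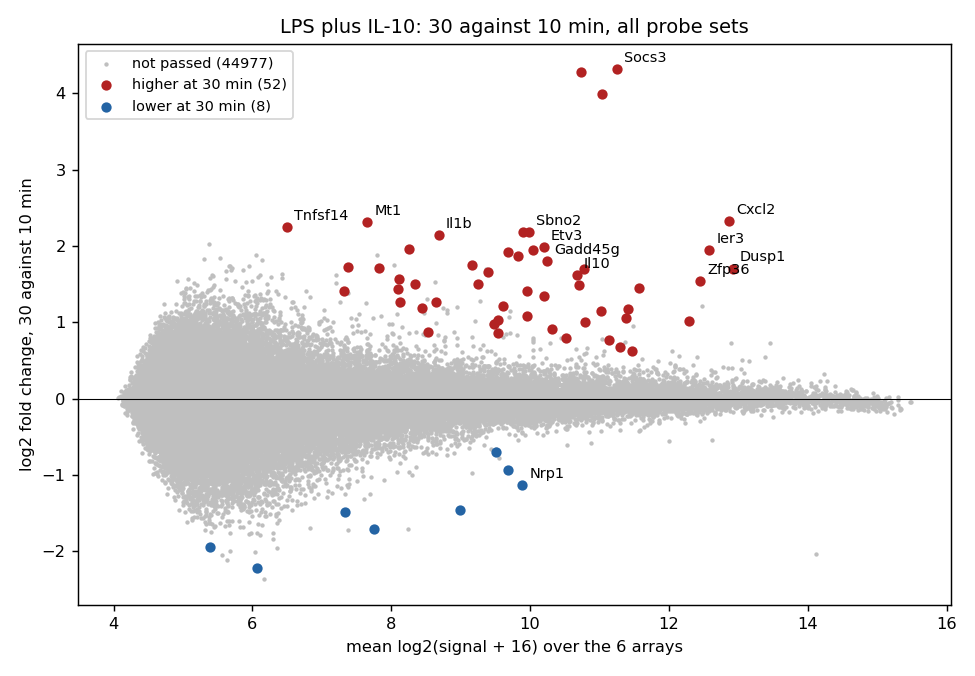
Log2 fold change from 10 to 30 min under LPS plus IL-10 (vertical axis) against the mean log2(signal + 16) over the 6 arrays (horizontal axis), 1 point per probe set; red points rose (52), blue points fell (8) and grey points did not pass. The 3 Socs3 probe sets lie between 3.99 and 4.31, above all other called points, and the called points that fell lie between -2.21 and -0.70.

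The promoters of 3 risers that hold a STAT-type site and of 2 chemokine risers that hold an NF-kB-type site are shown first, because STAT3 and NF-kB are the factors through which IL-10 and LPS are known to act. Sequences are from RefSeq on GRCm38.p6, read 5′ to 3′ on the gene's strand, and show the 250 bases before an annotated start site. The search itself also took in the 50 bases after it. A gene can have several annotated start sites. Capitals mark a match to TTCNNNGAA, the STAT motif, in the first 4 sequences, and to the kappaB consensus in the last 2, where matches on the 2 strands overlap by 9 bases.
Socs3, chr11:117969367-117969616, - strand: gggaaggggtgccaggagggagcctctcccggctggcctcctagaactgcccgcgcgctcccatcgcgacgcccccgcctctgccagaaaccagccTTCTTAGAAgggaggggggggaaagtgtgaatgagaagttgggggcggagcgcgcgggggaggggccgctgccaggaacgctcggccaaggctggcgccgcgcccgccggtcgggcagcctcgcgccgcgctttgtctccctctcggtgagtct
Sbno2, chr10:80102703-80102952, - strand: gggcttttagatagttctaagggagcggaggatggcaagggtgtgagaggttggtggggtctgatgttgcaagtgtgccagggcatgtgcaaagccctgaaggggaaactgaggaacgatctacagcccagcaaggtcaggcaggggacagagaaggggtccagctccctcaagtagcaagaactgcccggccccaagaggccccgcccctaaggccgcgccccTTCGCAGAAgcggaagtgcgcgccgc
Sbno2, chr10:80101188-80101437, - strand: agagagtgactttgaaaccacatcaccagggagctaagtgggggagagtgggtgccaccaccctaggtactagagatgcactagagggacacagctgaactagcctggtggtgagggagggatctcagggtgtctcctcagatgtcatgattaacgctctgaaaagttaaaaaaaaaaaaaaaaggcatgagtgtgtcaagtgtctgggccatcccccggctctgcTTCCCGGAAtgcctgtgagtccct
Irf1, chr11:53769764-53770013, + strand: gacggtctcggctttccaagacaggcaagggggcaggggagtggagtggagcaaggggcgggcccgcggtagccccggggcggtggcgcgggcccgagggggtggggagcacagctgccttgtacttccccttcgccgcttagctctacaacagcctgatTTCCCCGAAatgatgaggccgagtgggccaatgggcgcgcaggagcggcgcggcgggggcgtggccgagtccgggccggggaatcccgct
Cxcl1, chr5:90890995-90891244, + strand: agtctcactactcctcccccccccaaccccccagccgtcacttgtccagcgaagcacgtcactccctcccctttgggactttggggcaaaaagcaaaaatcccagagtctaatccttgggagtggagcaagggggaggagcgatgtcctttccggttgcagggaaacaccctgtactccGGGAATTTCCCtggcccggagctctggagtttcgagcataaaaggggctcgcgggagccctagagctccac
Cxcl2, chr5:90903649-90903898, + strand: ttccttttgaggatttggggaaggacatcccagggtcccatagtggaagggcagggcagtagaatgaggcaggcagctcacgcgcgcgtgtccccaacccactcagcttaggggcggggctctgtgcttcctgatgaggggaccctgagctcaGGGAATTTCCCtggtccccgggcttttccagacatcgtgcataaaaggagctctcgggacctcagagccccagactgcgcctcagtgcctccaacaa
The Socs3 match starts at -154, where -1 is the last base printed, the Sbno2 matches at -26 and -24, and the Irf1 match at -90. Both chemokine promoters hold the same letters, GGGAATTTCC, starting at -71 in Cxcl1 and -97 in Cxcl2. The printed Irf1 stretch also holds a kappaB match, at -13 to -4, left in lower case. Sbno2 has one in a promoter that is not shown.

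RefSeq promoters were matched for 27 of the 35 genes that rose. TTCNNNGAA, searched on both strands, was found for 6 of them, Socs3, Sbno2, Irf1, Zfp36, Csrnp1 and Pde4b, or in 7 of their 39 promoters, against 8.3 percent of all 32851 promoters. The kappaB consensus was found for 8, namely Cxcl1, Cxcl2, Ier3, Irf1, Pde4b, Rbm39, Sbno2 and Tnfaip3, or in 10 of 39 promoters, against 8.46 percent of all. TGANTCA, the AP-1 motif, was in 4 of their promoters against 7.81 percent of all, TGACGTCA, the cyclic AMP response element, in 2 (Dusp1 and Ppp1r15a) against 1.79 percent, and the CArG box in 1 (Zfp36) against 1.63 percent. A match describes these letters in this window, and binding was not measured.

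Socs3 had the largest rise of the comparison. On its brightest probe set the signal was 409.8, 569.9 and 643 at 10 min in experiments 1, 2 and 3, and 10529.9, 11388 and 10701 at 30 min (log2 fold change of 4.31 with an SE of 0.23, adjusted p = 2.24e-09). The groups were far apart, and on the log2 scale the 3 experiments were closer to each other at 30 min than at 10 min. The remaining Socs3 probe sets rose by 3.99 and 4.29 on the log2 scale. The brightest and the one at 3.99 are of a type (suffix x) whose probes can also bind other transcripts, and the one at 4.29 is not. Per experiment the brightest one rose by 4.63, 4.28 and 4.02.

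Sbno2, a strawberry notch co-repressor gene, was at 399, 508 and 473 at 10 min and at 1994, 2480.0 and 1977 at 30 min in experiments 1, 2 and 3 (log2 fold change of 2.18 with an SE of 0.17, adjusted p = 3.22e-07). Its lowest 30 min array was several times its highest 10 min array. Another pair of Sbno2 probe sets rose by 1.65 (adjusted p = 4.05e-05) and 1.76 (adjusted p = 0.00066), and the dimmest, at 197 ± 31 and 187 ± 93.5 (mean ± SD, n = 3), had a log2 fold change of -0.16 and did not pass. Without experiment 1 the first of that pair lost its call (adjusted p = 0.058), as did the second (0.0866).

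Etv3, which encodes an ETS-family repressor, had 4 probe sets with unlike behaviour. The third-brightest was at 553, 694 and 489.6 at 10 min and 2346, 2597 and 2049 at 30 min (log2 fold change of 1.99 with an SE of 0.15, adjusted p = 3.22e-07). The brightest was at 1752, 2058 and 1409.8 at 10 min and 3117, 3369 and 2404 at 30 min (log2 fold change of 0.77 with an SE of 0.11, adjusted p = 0.00249), a smaller rise on a higher starting signal, and the next at 1023, 1100.0 and 677 at 10 min and 2184, 1836 and 1300.5 at 30 min (log2 fold change of 0.91 with an SE of 0.10, adjusted p = 8.23e-05). The dimmest had a log2 fold change of -0.20 (adjusted p = 1.00). In experiments 1, 2 and 3 the third-brightest rose by 2.05, 1.88 and 2.03 and the brightest by 0.83, 0.71 and 0.76, so the gap between the probe sets was larger than the spread between experiments. Which transcripts each probe set detects was not tested. The brightest lost its call without experiment 1 (adjusted p = 0.43) or 2 (0.0623), and the next without experiment 1 (0.116).

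In the list of genes known to respond to IL-10 or STAT3, 9 of 29 measured members rose, 0 fell and 20 did not pass, where 0.17 percent of all 18193 genes rose on their brightest probe set. The median log2 fold change was 0.40, against -0.04 over all genes. Etv3 and Sbno2, the subjects of the study, are among its members. This and the other lists were also chosen with earlier results of these data known. The list is therefore not independent evidence of its direction, and list counts set beside the share over all genes are descriptions. That share, 0.17 percent, stands for every list below. Gadd45g, a stress sensor gene, was at 964, 619 and 429 at 10 min and 2372, 2242 and 2155 at 30 min (log2 fold change of 1.80 with an SE of 0.22, adjusted p = 0.000316), and its 3 arrays at 30 min were much closer together than those at 10 min. Il10 rose by 1.62 (SE 0.16, adjusted p = 1.13e-05), by 1.61, 1.68 and 1.57 in experiments 1, 2 and 3. Irf1, an interferon regulatory factor gene, was at 2072, 2022 and 1465 at 10 min and 4697, 3006 and 3984 at 30 min (log2 fold change of 1.06 with an SE of 0.15, adjusted p = 0.00162), with the smallest rise in experiment 2. Pim1, a serine-threonine kinase gene, rose on both probe sets, by 1.01 (adjusted p = 0.00326) on the brighter and 1.50 (adjusted p = 0.0283) on the dimmer. The brighter was at 1596, 987 and 1202 at 10 min and 3612, 2251 and 1944 at 30 min.

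The metallothioneins, small metal-binding proteins, gave a split picture. Mt2 was at 1853, 2431 and 2622 at 10 min and 3328, 3437 and 3773 at 30 min (log2 fold change of 0.62 with an SE of 0.10, adjusted p = 0.00504), the smallest called rise of the comparison. For Mt1 the dim probe set was at 75.1, 59.4 and 91.8 at 10 min and 484, 417 and 402 at 30 min (log2 fold change of 2.31 with an SE of 0.31, adjusted p = 0.000748), while the bright one was at 7762, 7988 and 8008 at 10 min and 9426, 9009 and 9456 at 30 min and did not pass (log2 fold change 0.23, adjusted p = 0.935). Nfil3, a leucine zipper repressor gene, had 371, 333 and 189.9 at 10 min and 843, 600.5 and 528 at 30 min (log2 fold change 1.12) and missed the threshold at an adjusted p of 0.0843. Bcl3 (0.35), Bcl6 (-0.10) and the brightest Stat3 probe set (-0.02) did not pass either. Mt1 lost its call without experiment 1 (adjusted p = 0.19) or 2 (0.0877), Mt2 without 1 (0.958) or 2 (0.173), Gadd45g without 2 (0.0623), Irf1 without 1 (0.43) and the brighter Pim1 probe set without 1 (0.43) or 2 (0.217). The dimmer Pim1 probe set lost it whichever experiment was left out (adjusted p = 0.276, 0.242 and 0.15).

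The genes of the IL-10 receptor, the Janus kinases, the STAT factors and their inhibitors other than Socs3 had no call. None of 28 measured members passed in the limma fit (median log2 fold change -0.04). The largest values were 0.67 for Socs1, -0.40 for Stat2 and -0.40 for Cish. Il10ra, the ligand-binding receptor chain, was at 495 ± 223 and 544 ± 159 (mean signal ± SD, n = 3; log2 fold change 0.19).

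Chemokine genes, whose products draw other leukocytes to the site, gave 6 of the 35 risen genes. Of 22 measured members 6 rose, against 0.17 percent of all genes, and 0 fell (median log2 fold change 0.26). Cxcl2, a neutrophil attractant, was at 5070.0, 2836 and 2552 at 10 min and 18799.9, 20602 and 12154 at 30 min (log2 fold change of 2.33 with an SE of 0.19, adjusted p = 8.24e-07), and in experiment 3 it stayed below the others at 30 min. Cxcl1, its close relative, was at 489.5, 502 and 324 at 10 min and 2181, 3708 and 1001 at 30 min on its second-brightest probe set (log2 fold change of 2.18 with an SE of 0.23, adjusted p = 4.07e-05), and its 2 other probe sets rose by 1.95 and 0.97. The rise on the second-brightest was 2.12, 2.85 and 1.58 in experiments 1, 2 and 3. Without experiment 1 or 2 the brightest Cxcl1 probe set lost its call (adjusted p = 0.161 and 0.0986), as did the dimmest (1.00 and 0.871). Cxcl3 had the next largest value of the CXC genes, 1.31, and just missed the threshold (adjusted p = 0.0523).

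The CC chemokines that rose attract monocytes and lymphocytes. Ccl3 was at 2108, 1763 and 1617 at 10 min and 4604, 7509.8 and 3618 at 30 min (log2 fold change of 1.45 with an SE of 0.18, adjusted p = 0.000431), with no overlap between the times, and Ccl4 was at 1062, 1072 and 818 at 10 min and 2560.5, 3872 and 2125 at 30 min (log2 fold change of 1.48 with an SE of 0.22, adjusted p = 0.00269). Ccl7 rose by 1.70 (adjusted p = 0.00269) and Ccl2 by 1.02 (adjusted p = 0.0283), 2 genes whose levels differed more between experiments than between times. Ccl7 was at 2766, 974 and 314 at 10 min and 5729.8, 3745 and 1434 at 30 min, and Ccl2 at 7461, 4164 and 1396 at 10 min and 11321, 7884 and 4085 at 30 min. In both, experiment 1 was highest and experiment 3 lowest at each time, and the groups overlapped although each experiment rose. Without experiment 2, Ccl4 (adjusted p = 0.0581), Ccl7 (0.371) and Ccl2 (0.493) lost their calls. Ccl2 also lost it without experiment 1 (0.162) or 3 (0.129), and in the fit without the 20 min LPS arrays of experiments 2 and 3 (each of which enters only through the spread and the block).

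Among cytokine genes 5 of 25 measured members rose, Il10 included, against 0.17 percent of all genes, and 0 fell (median log2 fold change 0.28). Il1b, the gene of interleukin-1 beta, was at 104, 127 and 421 at 10 min and 474, 1119 and 1140.1 at 30 min (log2 fold change of 2.14 with an SE of 0.31, adjusted p = 0.0017), higher in each experiment by 2.04, 2.99 and 1.40. Tnf, which encodes tumour necrosis factor, was at 3105, 1945 and 424 at 10 min and 7448, 4755 and 811 at 30 min (log2 fold change of 1.15 with an SE of 0.22, adjusted p = 0.0406). Experiment 3 had the lowest Tnf signal at both times, its 30 min array lay below the 10 min arrays of the other experiments, and the groups overlapped. Tnfsf9, the ligand of the co-stimulatory receptor 4-1BB, was at 502, 381 and 343 at 10 min and 2187, 1742 and 1036 at 30 min (log2 fold change of 1.93 with an SE of 0.23, adjusted p = 0.000231), and the lowest 30 min array was above the highest at 10 min. Tnfsf14, the gene of the TNF family ligand LIGHT, was dim, at 140.3, 5.8 and 4.9 at 10 min and 392, 175 and 82.2 at 30 min (log2 fold change of 2.25 with an SE of 0.43, adjusted p = 0.0306), and its value was 1.34 with a pseudocount of 64. Its call was lost at a pseudocount of 1 and with the block left out, and was kept in 5 of the 11 settings run for it. A second probe set had a value of 1.06 that did not pass (adjusted p = 0.925). Il6, an NF-kB target of the later response, was at 1.2, 2 and 41.2 at 10 min and 31.4, 54.2 and 96.4 at 30 min (log2 fold change 1.47, adjusted p = 0.723). In experiments 1 and 2 it was far below the array's lower quartile at 10 min and between that and the median at 30 min. In experiment 3 it was between them at 10 min and above the median at 30 min. Il1a had 0.36 (adjusted p = 1.00). Without experiment 1 the calls of Tnf (adjusted p = 0.278), Tnfsf9 (0.058) and Tnfsf14 (0.249) were lost, without experiment 2 those of Tnf (0.802), Il1b (0.245) and Tnfsf14 (0.886), and without experiment 3 that of Tnfsf14 (0.174).

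Of the inflammatory enzymes and surface proteins 2 of 27 measured members rose, Ptgs2 and Pde4b, against 0.17 percent of all genes. None fell (median log2 fold change 0.19). Ptgs2, the inducible cyclooxygenase that starts prostaglandin synthesis, was at 268, 141 and 66.1 at 10 min and 750.3, 1338 and 192 at 30 min (log2 fold change of 1.96 with an SE of 0.33, adjusted p = 0.0114). Its rise was 1.43, 3.11 and 1.34 in experiments 1, 2 and 3, so experiment 2 was well above the others, and without it the call was lost (adjusted p = 0.802), as without experiment 1 (0.169). The dimmer Ptgs2 probe set had a value of 1.20 that did not pass (limma adjusted p = 0.807). It changed by 2.08, 1.83 and -0.31 in experiments 1, 2 and 3. Pde4b, which breaks down cyclic AMP, was at 387, 408 and 612 at 10 min and 1493, 1798 and 1902 at 30 min on its brightest probe set (log2 fold change of 1.87 with an SE of 0.14, adjusted p = 3.22e-07), and another of its 6 probe sets rose by 0.86, a call lost without experiment 1 (adjusted p = 0.441) or 2 (0.371). Ptger4, a receptor for prostaglandin E2, rose by 0.88 on its dimmer probe set (adjusted p = 0.0287), from 196, 401 and 211 to 354, 769.7 and 413, a call lost without any 1 of the experiments (adjusted p = 0.661, 0.802 and 0.095). Flrt3, a membrane protein gene, rose on both probe sets, by 1.44 and 1.27, with 1.56, 2.24 and 0.53 in experiments 1, 2 and 3 on the brighter. It lost both calls without experiment 1 or 2 (adjusted p = 0.981 and 0.802 for the brighter).

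Some of the genes that shut down LPS signals rose. Dusp1, the phosphatase that inactivates MAP kinases, was at 5443, 4587 and 3140.2 at 10 min and 14222, 16807 and 11468 at 30 min (log2 fold change of 1.71 with an SE of 0.14, adjusted p = 1.15e-06). It was the called member of the MAP kinase feedback list. There 1 of 21 measured genes rose, against 0.17 percent of all genes, and 0 fell (median log2 fold change 0.34). Dusp2, at 1.62 (adjusted p = 0.118), and Dusp5, at 1.04 (adjusted p = 0.262), had the next largest values and did not pass. Zfp36, the gene of tristetraprolin, which marks cytokine mRNAs for decay, was at 4279, 3518 and 2340.4 at 10 min and 11202, 10848 and 7158 at 30 min (log2 fold change of 1.54 with an SE of 0.13, adjusted p = 1.15e-06). It was the called member among 18 mRNA decay genes, where 0 fell, and Btg2 followed with 1.15 (adjusted p = 0.325).

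Of the NF-kB feedback and adaptor genes 2 of 24 rose, against 0.17 percent of all genes, and 0 fell (median log2 fold change 0.14). Nfkbiz, which encodes a nuclear partner of NF-kB, was at 1892, 2581 and 1199.7 at 10 min and 5789, 6286 and 1873 at 30 min on its brightest probe set (log2 fold change of 1.17 with an SE of 0.15, adjusted p = 0.000321), and its dimmer ones rose by 1.41 and 1.03. The rise was 1.61, 1.28 and 0.64 in experiments 1, 2 and 3, smallest in experiment 3, whose 30 min array lay within the range of the 10 min arrays. Tnfaip3, the gene of the NF-kB inhibitor A20, was at 2517, 2318 and 1305 at 10 min and 5174, 3822 and 1594 at 30 min (log2 fold change of 0.68 with an SE of 0.13, adjusted p = 0.0292), again with the smallest rise in experiment 3. A dimmer Tnfaip3 probe set had a value of 1.27 and did not pass (limma adjusted p = 0.147). Nfkbia, which encodes the inhibitor that holds NF-kB in the cytoplasm, was already among bright probe sets at 10 min, with 24933, 27959.5 and 18125 at 10 min and 27699, 26259 and 21386 at 30 min (log2 fold change 0.10, adjusted p = 1.00), and its 4 dimmer probe sets had values of 0.33 to 0.54 that did not pass either. Traf1, an adaptor of TNF receptors, had 1.20 (adjusted p = 0.0843). Leaving out experiment 1 or 2 ended the calls of all 3 Nfkbiz probe sets (adjusted p = 0.116 and 0.142 for the brightest) and of Tnfaip3 (1.00 and 0.692).

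Immediate early genes, which need no new protein to be switched on, rose in part. Of the immediate early effectors 4 of 29 rose, against 0.17 percent of all genes, and 0 fell (median log2 fold change 0.24). The risers were Ier3, Gadd45g, Ier2 and Ppp1r15a. Ier3, a stress-inducible survival gene, was at 3467, 2855 and 3033 at 10 min and 10550.3, 12684 and 12930.5 at 30 min (log2 fold change of 1.94 with an SE of 0.16, adjusted p = 1.15e-06), with the 3 experiments close together at both times. Ier2 was at 1020.4, 623 and 591 at 10 min and 3507, 1689 and 1086 at 30 min (log2 fold change of 1.35 with an SE of 0.20, adjusted p = 0.0028), and Ppp1r15a, which directs dephosphorylation of a translation initiation factor, at 868, 524 and 648 at 10 min and 1914, 1534 and 991 at 30 min (log2 fold change of 1.08 with an SE of 0.16, adjusted p = 0.00326), and both rose least in experiment 3. Ier2 lost its call without experiment 1 (adjusted p = 0.696), and Ppp1r15a without experiment 1 (0.235) or 2 (0.233).

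Of 30 AP-1, ATF and Egr transcription factor genes 1 rose, against 0.17 percent of all genes, and 0 fell (median log2 fold change 0.22). The riser was Csrnp1, a nuclear factor gene, at 199.8, 85.6 and 174 at 10 min and 638, 379.6 and 406 at 30 min (log2 fold change of 1.57 with an SE of 0.29, adjusted p = 0.0283), whose call was lost without experiment 1 (adjusted p = 1.00) or 2 (0.306). A dimmer Csrnp1 probe set had a value of 0.04 and did not pass. Egr1 had the largest value, 1.70, but its signals were 773, 160.5 and 338 at 10 min and 2202, 1162 and 637 at 30 min, and the adjusted p was 0.383. Junb was at 2181 ± 862 and 4108 ± 1395 (mean ± SD, n = 3; log2 fold change 0.95, adjusted p = 0.0628), Fos at 8878 ± 1949 and 14499.8 ± 1429 (0.73, adjusted p = 0.126) and Jun at 1741 ± 401 and 2677 ± 479.5 (0.63, adjusted p = 0.135). Atf3 stood at 4157 ± 1444 and 4329 ± 1711 (0.03). Each of these 4 factors was above the array median at 10 min on every array and had no called change after it.

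A few called probe sets have no evident place in the groups above. Snord89, annotated as a small nucleolar RNA gene, was at 163, 227 and 264 at 10 min and 369, 617 and 574 at 30 min (log2 fold change of 1.19 with an SE of 0.22, adjusted p = 0.0231). Of the 12 probe sets of the splicing factor gene Rbm39, 1 rose (0.79, adjusted p = 0.0181), and the other 11 did not pass. Tma16 rose on its dimmest probe set of 3 (1.72, adjusted p = 0.0283), and the predicted gene Gm6377 from 318, 366 and 349.5 to 759, 1562 and 851 (log2 fold change of 1.50 with an SE of 0.19, adjusted p = 0.000321). The Rbm39 and Gm6377 probe sets are, like those of Socs3 named above, of the suffix x type, whose probes can also bind other transcripts. The Sbno2 probe set with a rise of 1.76 and the Cxcl1 one with 0.97 are of that type too. With an experiment left out, Gm6377 kept its call without 2 or 3 (adjusted p = 0.0333 and 0.000647) and lost it without 1 (0.0559), Snord89 kept it without 3 (0.0256) and lost it without 1 (0.441) or 2 (0.802), and Rbm39 and Tma16 lost it each time. Of the 4 unnamed probe sets that rose, none passed whichever experiment was left out.

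Fewer probe sets fell, and 1 of 8 had a name. Nrp1, the gene of a co-receptor for semaphorins and VEGF, fell on its dimmest probe set from 1390.5, 1977 and 967 to 773, 688 and 454 (log2 fold change of -1.13 with an SE of 0.16, adjusted p = 0.0017), with log2 changes of -0.83, -1.50 and -1.06 in experiments 1, 2 and 3. Its 3 brighter probe sets had values of 0.11, -0.08 and -0.14 and did not pass, so the fall is that of 1 probe set and not of all Nrp1 signal. The unnamed probe set 1446417_at fell from 939, 862 and 700.2 to 275, 322 and 275 (log2 fold change of -1.46 with an SE of 0.19, adjusted p = 0.000431). The unnamed 1443628_at fell from 271, 358 and 536 to 99.5, 95 and 118 (log2 fold change of -1.70 with an SE of 0.24, adjusted p = 0.00135), and at 10 min it was highest in experiment 3. Another 2 unnamed ones were dim: at 10 min they were between 40.3 and 134, and at 30 min between 4.1 and 20.4, below the lower quartile of every array. The lower quartile itself was 25.9 and 27.5 on the 10 min arrays of experiments 2 and 3 and 22.9 to 23.6 at 30 min, and its part in the falls of dim probe sets was not tested. The dimmest of them had a log2 fold change of -1.94, which became -3.37 with no call at a pseudocount of 1 and -0.92 at 64. Of the 7 unnamed probe sets that fell, none passed whichever experiment was left out. Over all probe sets, 1502 were lower and 921 higher at an unadjusted p under 0.05, where 2252 in all would be expected by chance.

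Several nuclear or short-lived transcripts had values below 0 without passing. Neat1, a long nuclear RNA, was at 4139.9, 5234 and 5539 at 10 min and 2984, 3606 and 3506 at 30 min (log2 fold change -0.55, adjusted p = 0.262), and the noncoding Mir670hg had -1.29 (adjusted p = 0.102). Txnip, an inhibitor of thioredoxin, had -0.53 (adjusted p = 0.146). Mir155hg (0.64) and Irs2 (0.66), of the same lists, had values above 0 and did not pass either. Of 9 nuclear noncoding RNAs and of 20 short-lived or FoxO-regulated transcripts, none passed in limma (median log2 fold changes -0.22 and -0.07). Values below 0 were had by 6 of the 9 and 13 of the 20, beside 10477 of all 18193 genes, and nothing is read from these counts. Malat1 values lay between -0.42 and 0.44 on its 7 probe sets, with no common direction.

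Experiments differed in how far the risers went. The median log2 change of the 52 risers was 1.38, 1.83 and 1.30 in experiments 1, 2 and 3, while that of all probe sets was 0.00, -0.06 and -0.04. Experiment 2 gave the largest change for 29 of the 52 and experiment 3 the smallest for 30. The order was not the same for all genes. Gadd45g, Ccl7, Ccl2 and Irf1 rose most in experiment 3, and Nfkbiz, Tnfaip3 and Ier2 rose most in experiment 1. The brightest Sbno2 probe set, with 2.28, 2.25 and 2.03 in experiments 1, 2 and 3, and Il10, with 1.61, 1.68 and 1.57, were nearly even.

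**Figure D2:**
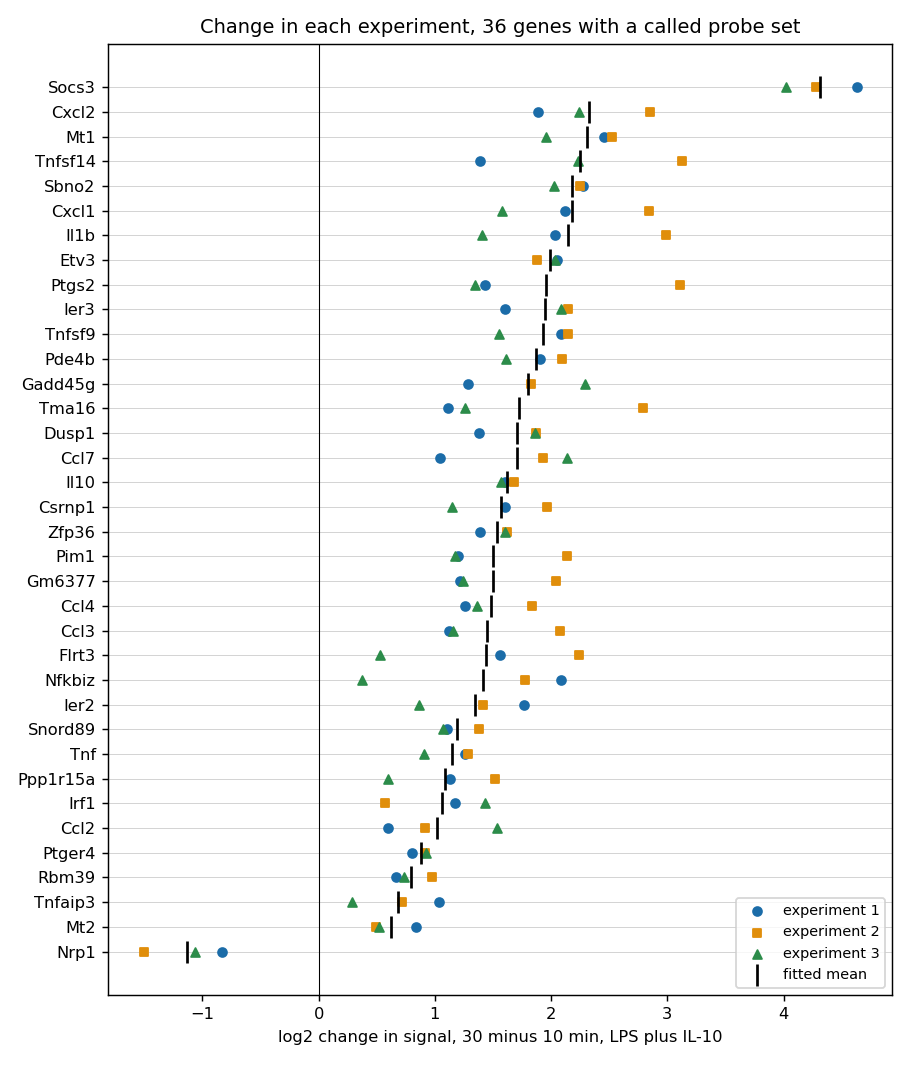
Log2 change from 10 to 30 min under LPS plus IL-10 in experiment 1 (circles), 2 (squares) and 3 (triangles), with the fitted mean (black bars), for the 36 genes with a called probe set, each shown by the called probe set with the largest absolute change. All points lie on 1 side of 0 within a gene, and Socs3 stands alone above 4.

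The arrays at 20 min, which played no part in choosing these genes beyond the shared spread, show how the change was spread over time. For all 52 risers and all 8 that fell, the 20 min mean lay between the means at 10 and 30 min, as it did for 32.4 percent of all probe sets. In 38 of the risers the signal increased at each step in each of the 3 experiments, against 0.375 percent of all probe sets. Choosing probe sets by a large change from 10 to 30 min favours both counts, and nothing is read from them. The median riser had made 43.8 percent of its log2 change by 20 min, with a range of 7.13 to 88.7 percent, and 20 of the 52 were past 50 percent.

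Socs3 and Sbno2 had made more of their log2 change by 20 min than the median riser. In signal, the mean of the brightest Socs3 probe set went from 541 to 5128 and 10873 at 10, 20 and 30 min. That of Sbno2 went from 460 to 1384 and 2150. The gain in signal was thus larger in the last 10 min for Socs3 and in the first 10 min for Sbno2. By 20 min the brightest probe sets of Socs3 and Sbno2 had made 74.7 and 70.6 percent of their log2 change, with 20 min signals of 4597, 4858 and 5930.4 for Socs3 and 1222, 1196 and 1734 for Sbno2 in experiments 1, 2 and 3. Dusp1 (59.1 percent), Cxcl2 (56.5 percent), Ier3 (53.6 percent) and Zfp36 (53.4 percent) had also made over 50 percent by then. Il1b had made 7.13 percent, and its 20 min signals of 49.5, 265 and 542 were below those at 10 min in experiment 1 and above in the others. Irf1 (14 percent), Tnfsf9 (18.4 percent), Tnfaip3 (13.2 percent), Tnf (21.5 percent) and Il10 (27.4 percent) made most of their rise in the last 10 min. Among Etv3 probe sets the brightest and the third-brightest had made 61.3 and 63.3 percent and the second-brightest 12 percent. These shares are descriptions. In the test of the second 10 min against the first, limma called 0 of 45037 probe sets (0 percent, smallest adjusted p 0.835). At an unadjusted p under 0.05 there were 2584, where 2252 would be expected by chance. No gene was therefore shown to move faster in either step. The fit on the 9 LPS plus IL-10 arrays alone called 2.

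**Figure D3:**
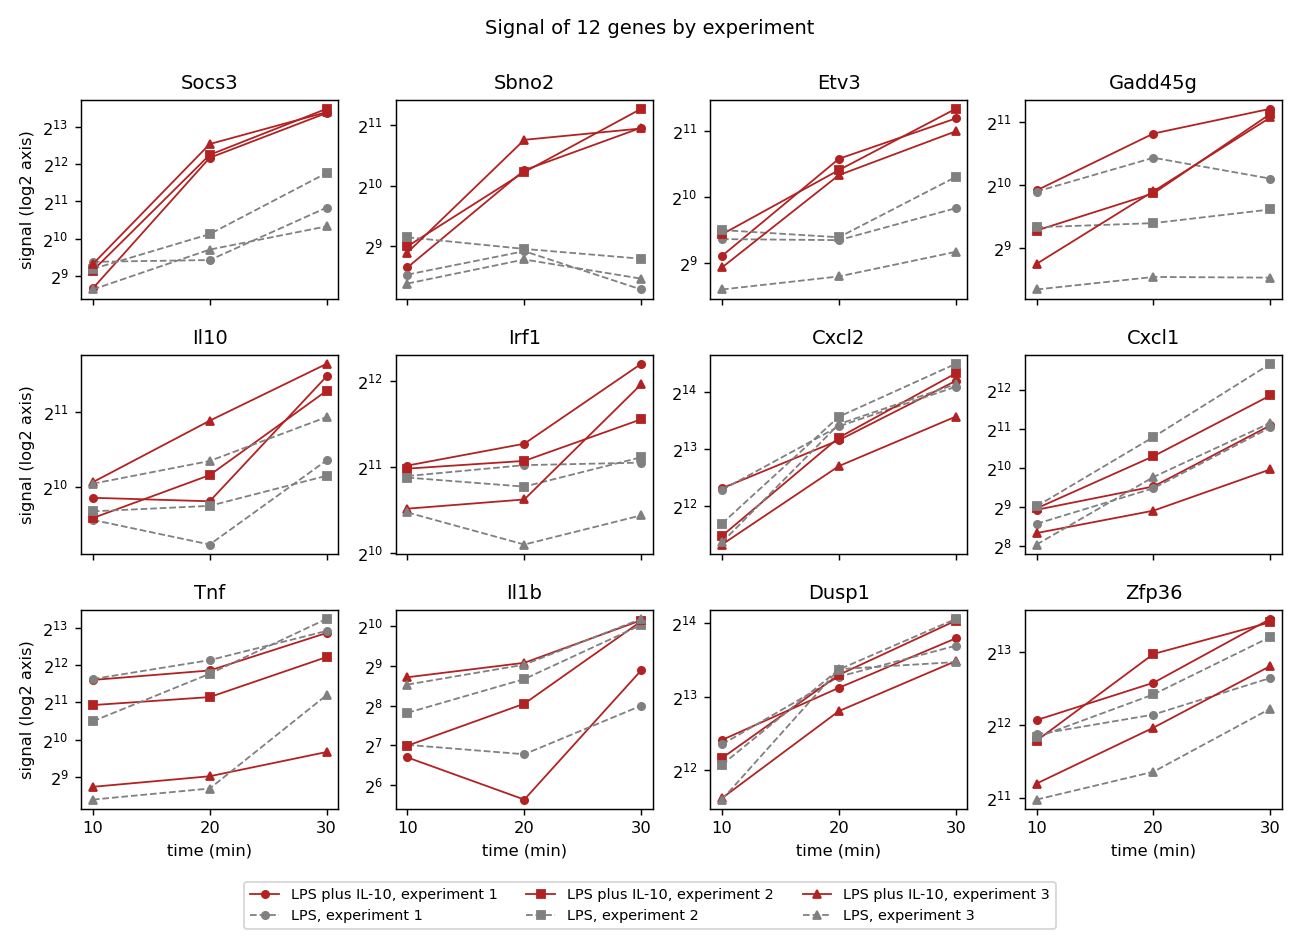
Signal on a log2 axis against time at 10, 20 and 30 min for 12 genes, each on its called probe set with the largest change; solid red lines are LPS plus IL-10 and dashed grey lines LPS alone, with circles, squares and triangles for experiments 1, 2 and 3. The red lines of Socs3 and Sbno2 pull away from the grey ones at 20 min, those of Irf1 at 30 min, and those of Cxcl2 and Dusp1 lie close to the grey ones at 10 and 30 min.

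The same interval under LPS alone was used to test whether the change itself differed with IL-10. 28 probe sets (0.0622 percent) rose under LPS alone from 10 to 30 min. The difference between the treatments in the change from 10 to 30 min passed for 6 probe sets (0.0133 percent), all with a larger rise under LPS plus IL-10. They are the 3 of Socs3, the brightest and the next of the 4 of Sbno2, and the third-brightest of the 4 of Etv3. The difference did not pass for the other called probe sets of Sbno2 and Etv3. The 2 treatments were run in the same 3 experiments and share no array.

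Sbno2 had a log2 fold change of 2.18 with IL-10 and -0.17 with LPS alone, where its signals were 367, 564 and 331 at 10 min and 309, 441 and 350.5 at 30 min in experiments 1, 2 and 3, a difference of 2.35 (95% interval 1.86 to 2.84, adjusted p = 0.00017). Socs3 rose under both treatments, by 4.31 and 1.87, and the LPS arrays went from 670.1, 588 and 402 to 1827, 3469 and 1292. Its difference was 2.45 (1.76 to 3.13, adjusted p = 0.00976). Etv3 on its third-brightest probe set had 1.99 with IL-10 and 0.60 without (adjusted p = 0.508 without), a difference of 1.39 (0.94 to 1.84, adjusted p = 0.0347). Without experiment 1 none of the 6 differences passed (adjusted p of Sbno2 on its brightest probe set 0.318), and without experiment 2 or 3 the count was 3 each. The Etv3 difference and that of the lower Sbno2 probe set were lost with each experiment. In the fit without the 20 min LPS arrays of experiments 2 and 3 the Etv3 difference and 1 of Socs3 did not pass. With no replicate block 1 difference passed, that of Sbno2 on its brightest probe set, with quantile normalization 3, and with no intensity trend in the fit 0.

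For the other risers no difference from LPS alone was shown, and the intervals, each for its probe set alone and not adjusted over the table, say what the data allow. Dusp1 rose by 1.71 with IL-10 and 1.73 without, with a difference interval of -0.45 to 0.40, and Cxcl2 by 2.33 and 2.46, with a difference interval of -0.70 to 0.42. Pde4b (-0.25 to 0.58) and Ier3 (-0.10 to 0.87) had intervals of like width. Tnf had 1.15 with IL-10 and 2.26 without (difference -1.11, -1.77 to -0.45, adjusted p = 1.00), and Cxcl1 1.95 and 3.28 on its brightest probe set (difference -1.33, -2.09 to -0.57, adjusted p = 1.00). Gadd45g (1.58, 0.93 to 2.24, adjusted p = 0.335), Irf1 (0.94, 0.50 to 1.38, 0.873) and Tnfsf14 (2.94, 1.68 to 4.19, 0.436) had larger rises with IL-10 that did not pass as differences. In all, the rise was larger with IL-10 for 40 of the 52 risers and smaller for 12, a split that the choice of risers under LPS plus IL-10 favours.

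**Figure D4:**
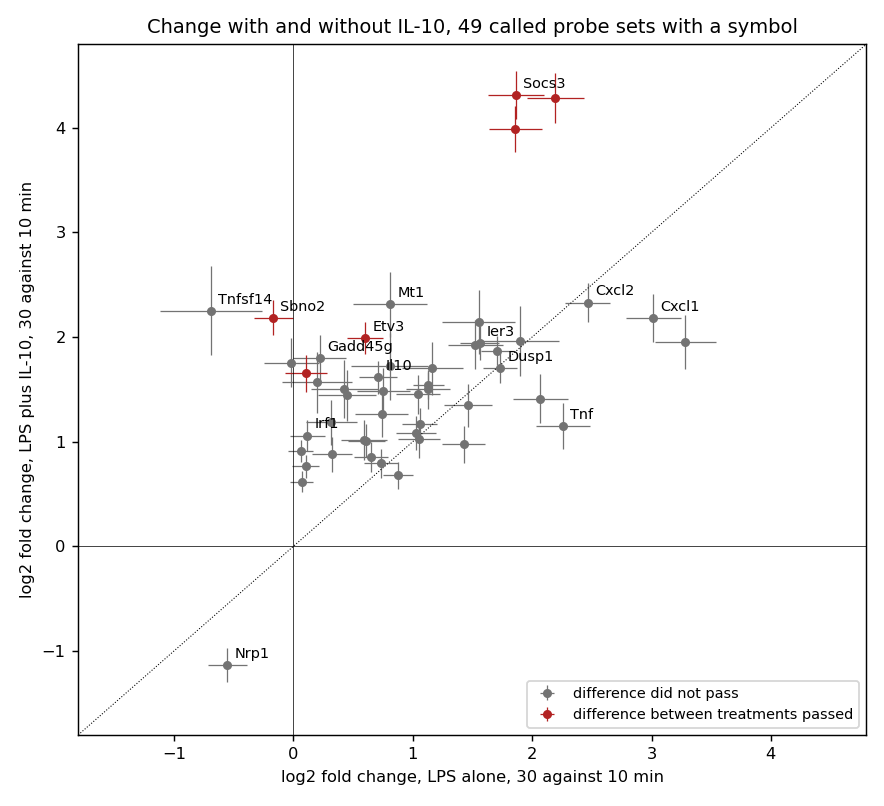
Log2 fold change from 10 to 30 min under LPS plus IL-10 (vertical axis) against that under LPS alone (horizontal axis) for the 49 called probe sets with a symbol; bars are SEs, the dotted line marks equal change, and red points are the 6 whose difference between treatments passed. The 6 red points, of Socs3, Sbno2 and Etv3, lie well above the line, and Dusp1 and Cxcl2 lie on it within their SEs.

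The medians of the other gene groups were near 0. In the interferon response list 1 of 29 measured members rose, Irf1, and the median log2 fold change was -0.05; the next largest values were -0.29 for Ifit1 and 0.29 for Mx2. Of the Kruppel-like factors, helix-loop-helix genes and other repressors 2 of 30 rose, Sbno2 and Etv3 (median 0.02). Of those that did not pass, Id1 had 1.07 (adjusted p = 0.121), Id2 0.51, Id3 0.49, Hey1 -0.49, Bcl6b -0.48, Klf2 0.41 and Klf6 0.39. Of the heat shock, unfolded protein and metal response genes 1 of 20 rose, Mt2 (median 0.07). No gene passed in limma among 27 Toll-like receptor signalling genes, 32 chemoattractant, semaphorin and growth factor receptors, 27 cell cycle genes and 15 housekeeping genes, whose medians were -0.02, -0.03, -0.01 and -0.01. Map3k8, a kinase of the Toll-like receptor list, had the largest value there (0.74, adjusted p = 0.119).

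**Figure D5:**
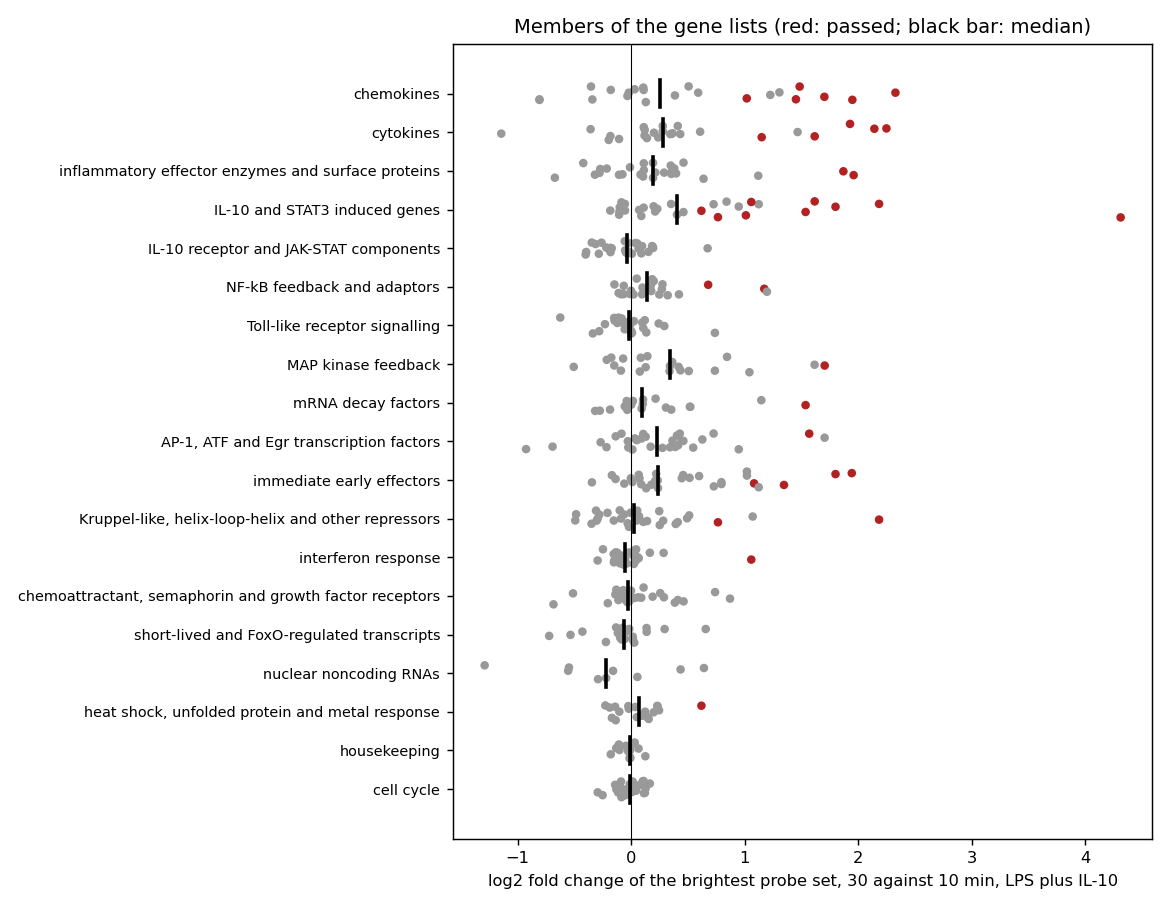
Log2 fold change from 10 to 30 min under LPS plus IL-10 for the measured members of 19 gene lists, on the brightest probe set of each gene; red points passed, grey points did not, black bars are list medians, and the vertical scatter within a list has no meaning. Red points gather in the chemokine, cytokine, STAT3 and immediate early lists, and the housekeeping and cell cycle points lie between -0.29 and 0.17.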

How the data were processed

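Per the submitters' processing notes the arrays were processed with GCOS 1.4. Signal algorithm, scaling settings and detection calls were not given in the sources used here. Each array has 1 column of deposited intensities, linear in scale and with the same trimmed mean on all. Names are those of the platform annotation and may be out of date: of 45037 without the 64 controls, 34945 carried 1 symbol, 932 several and 9160 none, and the last 2 kinds were left unnamed. Of the first, 34741 matched the gene table and no symbol changed.

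Signals became log2(signal + 16), with no filter. In limma 3.58.1 with R 4.3.3 (lmFit, then eBayes with a trend on intensity) all 18 arrays were fitted with 1 coefficient per group and the replicate number as a block, which left 10 degrees of freedom for the residual. P-values are two-sided and adjusted by Benjamini-Hochberg over all probe sets. The fit was checked on simulated data. The labels make a replicate number a separate experiment. The deviations of same-numbered arrays of this comparison from their group means correlated at 0.303, 0.133 and 0.267, so the numbers pair the arrays. A gene is its brightest probe set unless said. Named were all genes with a called probe set, a fixed panel and the leading members of each list. The members and lists were chosen with earlier results of these data known. The number of arrays limits the precision.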

Additional observations from a re-analysis of the deposited data

Results flagged for a closer look

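The change from 10 to 30 min differed between LPS plus IL-10 and LPS alone for 6 probe sets by the interaction test in limma (n = 3 per group and time), in each case with the larger rise under LPS plus IL-10 and in 3 of 3 experiments. For Socs3 the differences in log2 change were 2.45, 2.13 and 2.09 on its 3 probe sets (adjusted p = 0.00976, 0.0243 and 0.0388). Of 12 settings tried, these passed in 9, 8 and 2, the last for the probe set without the suffix x. For Sbno2 the differences were 2.35 on the brightest probe set and 1.55 on the next (adjusted p = 0.00017 and 0.0388). On the third-brightest Etv3 probe set the difference was 1.39 (adjusted p = 0.0347).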

How the results depend on the processing

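The settings tried were quantile normalization, pseudocounts of 1 and 64, filters at the array median and 75th percentile on 3 arrays, no replicate block, no intensity trend, a fit on the compared arrays, a fit without the LPS 20 min arrays of experiments 2 and 3, and each experiment left out. No called value changed sign under any of them, and 9 of the 60 called probe sets passed under all: those of Socs3 (3) and 1 each of Cxcl2, Sbno2, Etv3, Ier3, Pde4b and Dusp1. Without the replicate block the counts were 12 higher, 1 lower and 1 differing between treatments, in place of 52, 8 and 6. Without the intensity trend 21 were higher and 0 differed between treatments. The 75th percentile filter left 4 lower, quantile normalization 3 differences between treatments, and the fit on the compared arrays called 2 in the test of the second against the first 10 min, in place of 0. With an experiment left out, 17 to 70 were higher, 2 to 3 lower and 0 to 3 differed between treatments. The cause of these shifts was not tested. The fits with an experiment left out also hold fewer arrays, and the part of that was not tested either. Of the 60 calls, 7 were lost with quantile normalization (Csrnp1, Snord89, Tma16 and 4 unnamed), 13 on the compared arrays alone (Tnfsf14, Tma16, both of Flrt3, the dimmer Nfkbiz pair, the dimmest Cxcl1, Tnfaip3 and 5 unnamed), 34 without the trend and 47 without the block. Without the 2 LPS arrays at 20 min, 57 of the 60 calls held. Of 20 uncalled panel genes, at most 2 changed sign under a setting. Signals near background limit what can be said of dim probe sets.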

Other observations

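Stat3, whose 4 probe sets did not pass, had a value of 1.75 on its third-brightest (151, 93.4 and 145 at 10 min and 483, 518 and 404 at 30 min, limma adjusted p = 0.0694), against -0.02 and -0.10 on the brighter ones and -0.47 on the dimmest. Klf6, a Kruppel-like factor gene with 5 probe sets, had values from 0.34 to 0.78, all above 0 and none past the threshold. The 11 Rbm39 probe sets that did not pass had values from 0.00 to 0.65.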
